A study of Mus musculus with 6 samples.

Results

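The extracellular matrix of the hippocampus, and the integrin receptors that bind it, were followed through 186 probe sets of 85 genes, out of 45037 probe sets tested. A probe set was taken when the array annotation gave it exactly 1 gene symbol and that symbol named a collagen chain, a laminin chain, an integrin alpha or beta subunit (Itgam excepted), fibronectin (Fn1), the link protein gene Hapln1, the proteoglycan core proteins Vcan, Ncan, Bcan and Acan, or the small leucine-rich proteoglycans Dcn, Lum, Bgn, Ogn and Fmod. Of these genes, 55 were read by several probe sets, up to 8 for a single gene, and 30 by a single probe set. The animals compared were mice heterozygous for p300 deficiency (p300+/-) and, as controls, their wild-type littermates, all females of 3 months with a C57BL/6J background. Each genotype was measured on 3 arrays, and each array held a pool of equal amounts of hippocampal RNA from 4 animals, so that 12 animals of each genotype were used. The altered allele is not described in the sources used here. No cell type or promoter limits the deficiency in the labels, and a pool hides the spread between its animals. The question addressed was which transcripts differ between the genotypes.

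In the adult brain, most tissue between cells is a loose matrix of hyaluronan, lecticans, link proteins and tenascins, which condenses around some interneurons into perineuronal nets. Fibrillar collagens are scarce within the tissue and are made mainly by fibroblasts of the meninges and of large vessels. Type IV collagen and laminins form the basement membranes of blood vessels and of the brain surface, and integrins are paired alpha and beta subunits through which cells attach to these proteins. p300, the product of Ep300, is an acetyltransferase and transcriptional coactivator.

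The deposited values were log2 intensities minus each probe set's own median over the 6 arrays, so that they show differences between arrays and no absolute level. Fold changes below are p300+/- minus wild-type on this log2 scale. A coarse level class was read from the binary rounding of the values. Of the 186 probe sets, 23 (12.4%) were in the brightest class, log2 intensities of 8 to 16, against 27.5% of all tested. A further 125 fell in the class from 4 to 8 and 34 in that from 2 to 4, which leaves 4 with no class. The Ep300 probe set (1434765_at), the check of the genotype labels, lay at -0.26, -0.22 and -0.50 in p300+/- pools 1 to 3, against 0.22, 0.38 and 0.40 in wild-type pools 1 to 3. Its genotypes did not overlap, and it averaged 0.634 times the wild-type level. It did not pass adjustment over all tested probe sets (limma, unadjusted p = 0.00103, adjusted p = 0.9999). The position of its probes relative to the altered sequence was not analysed here. The arrays of p300+/- 3 and wild-type 2 stood apart, with standard deviations over all probe sets of 0.29 and 0.33, against 0.18 to 0.21 on the other 4 arrays. Markers of hippocampal pyramidal and granule cells, 11 of 11 measured, averaged -0.31 on p300+/- 3 and -0.31 on wild-type 2, and between 0.0080 and 0.071 on the others. In such bulk samples, fewer cells of a type and less RNA per cell cannot be told apart.

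No collagen, laminin, integrin or proteoglycan probe set passed the test between p300+/- and wild-type hippocampi once adjusted over all 45037. With limma, 0 of the 186 probe sets passed an adjusted p of 0.05, as did 0% of all tested, and the smallest adjusted p among them was 0.9999. Before adjustment, 7 probe sets (3.76%) had a p under 0.05, set beside 1.22% of all tested. Of these, 3 were higher (1.61%, against 0.770% of all) and 4 were lower (2.15%, against 0.451% of all) in p300+/- pools. The lower ones were in Col5a2, Itga4, Itga6 and Itga8, and the higher ones in Itgb4, Fmod and Dcn. The count was 4 without p300+/- 3 (1.43% of all tested) and 3 without wild-type 1 (1.05%). Among the 7, only Col5a2, Itga4 and Itga6 stayed under 0.05 with each single array left out. Itga8 was over it without p300+/- 3, wild-type 1 or wild-type 2, Dcn without p300+/- 2, p300+/- 3 or wild-type 1, and Fmod without any array but p300+/- 1 or wild-type 3. Itgb4 was under it only in the omission of p300+/- 2. The fold changes as a whole centred on 0, with a median of -0.0036 over the members and 0.0057 over all tested probe sets. Values were above 0 for 91 and below 0 for 95. The median standard error of 0.14 limits what 3 arrays a genotype can show.

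In 17 probe sets (9.14%) every p300+/- array was above, or every one below, all wild-type arrays, set beside 5.39% of all tested. They comprised 8 that were higher (against 3.19% of all) and 9 that were lower (against 2.20% of all) in p300+/-. With 3 arrays on each side, the smallest p an exact two-sided permutation test allows is 0.1. All 7 probe sets under an unadjusted p of 0.05 were among these 17. Integrin alpha subunits made up 5 of the 9 lower ones.

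**Figure D1:**
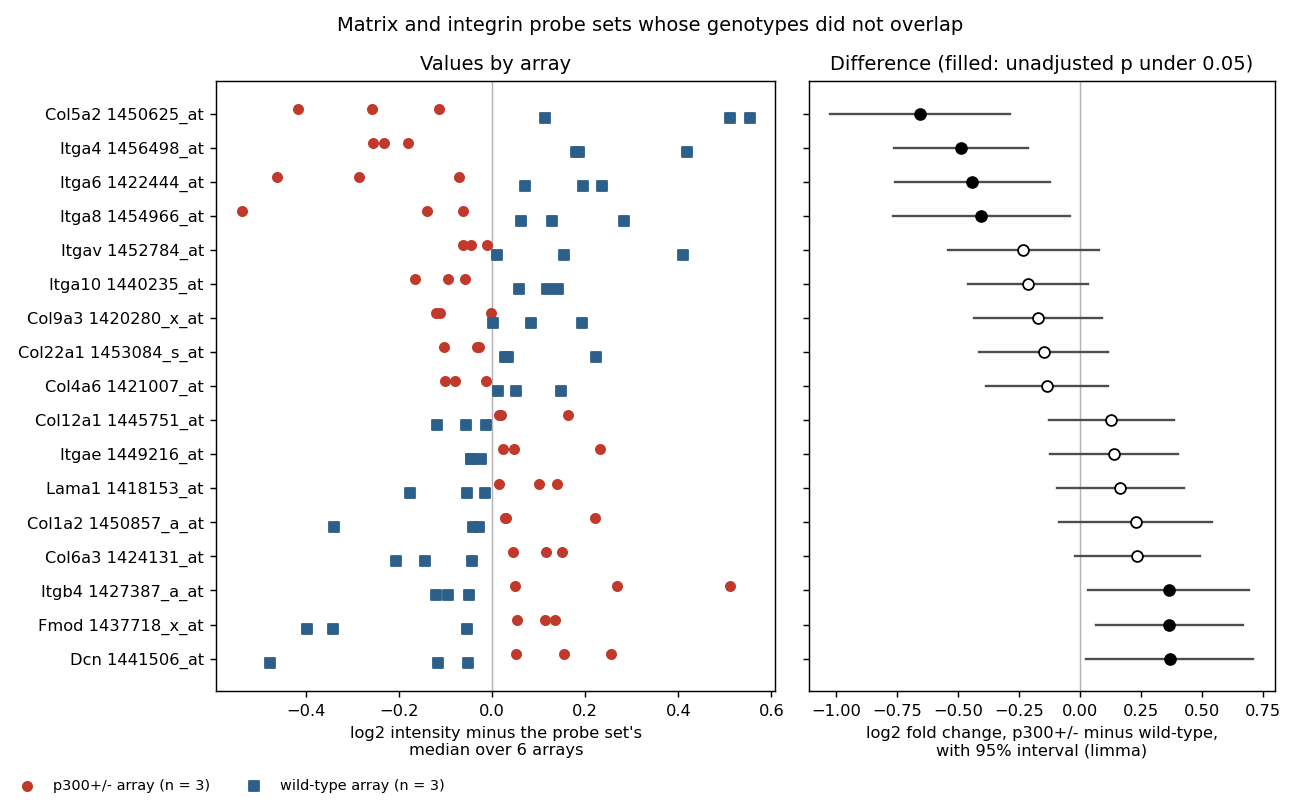
The left panel plots, for the 17 probe sets whose genotypes did not overlap, the log2 intensity minus the probe set's median on each p300+/- array (circles) and wild-type array (squares), and the right panel the log2 fold change with its 95% interval from limma, filled where the unadjusted p was under 0.05. Col5a2, at -0.66, and Itga4, at -0.49, have intervals farthest from 0, and the 10 open circles have intervals that include 0.

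Read by family, the members showed no common direction. Of the 21 probe sets of fibrillar collagens, 10 were above 0 and 11 below (median -0.045). The network and basement membrane collagens split 13 to 15 (median -0.021) and the FACIT collagens, which decorate fibrils, 12 to 12 (median 0.0088). Transmembrane and other collagens had 2 values above 0 and 7 below, with a median of -0.072. These 9 probe sets belong to 5 genes. Laminins split 9 to 10 (median -0.0074), integrin alpha subunits 17 to 16 (median 0.014) and integrin beta subunits 9 to 9 (median -0.011). Small leucine-rich proteoglycans had 9 above and 5 below (median 0.12), where 6 of the 14 probe sets read Fmod alone. Lecticans with Hapln1 and Fn1 split 10 to 10 (median 0.0047). Probe sets of a single gene often disagreed in sign, with 34 of the 55 genes that had several probe sets showing both.

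**Figure D2:**
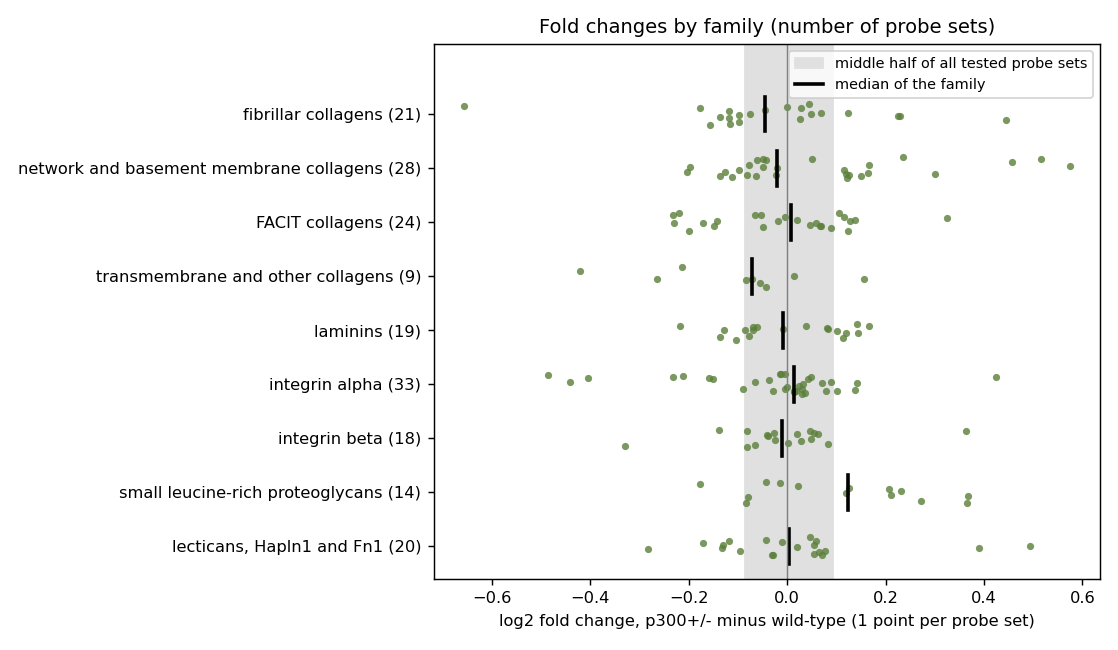
Each point is the log2 fold change, p300+/- minus wild-type, of a probe set, arranged by family, with the family median as a bar. The shaded band spans the middle 50% of all tested probe sets, from -0.085 to 0.094, and every family median except that of the small leucine-rich proteoglycans, 0.12, lies inside it.

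Among the fibrillar collagens, Col5a2 was the member with the smallest p. It encodes a chain of type V collagen, which starts and limits the thickness of collagen I fibrils. Probe set 1450625_at lay at -0.42, -0.26 and -0.11 in p300+/- pools, against 0.55, 0.51 and 0.11 in wild-type pools. Every p300+/- pool was below every wild-type pool, with wild-type 3 the nearest to them. The means were -0.26 ± 0.15 in p300+/- and 0.39 ± 0.24 in wild-type (SD, n = 3 each), a log2 fold change of -0.66 ± 0.16 (SE; limma, unadjusted p = 0.00368, adjusted p = 0.9999). On the linear scale this is a ratio of 0.635 to wild-type (95% interval 0.492 to 0.819). With an array left out the value ran from -0.80 without wild-type 3 to -0.58 without wild-type 1. The other Col5a2 probe set, 1422437_at, gave -0.097 ± 0.15 with overlapping genotypes. Both were in the level class from 4 to 8.

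Type I collagen, the main fibrillar collagen of meninges and connective tissue, is built from Col1a1 and Col1a2 chains. For Col1a2, probe set 1423110_at lay at -0.037, 0.29 and 0.54 in p300+/- pools, against -0.088, 0.037 and -0.49 in wild-type pools, a fold change of 0.44 ± 0.20. These genotypes overlapped, since p300+/- 1 was below wild-type 2. Its unadjusted p (limma) was 0.0556 over all arrays and 0.0482 with quantile normalization. It was at 0.59 without p300+/- 1 (limma, unadjusted p = 0.0208), at 0.55 without wild-type 2 (unadjusted p = 0.0341) and at 0.29 without wild-type 3. Another, 1450857_a_at, lay at 0.22, 0.029 and 0.028 in p300+/- pools, against -0.042, -0.34 and -0.028 in wild-type pools. It did not overlap but differed by only 0.23 ± 0.13, and the last, in the lowest level class, gave -0.12 ± 0.13. The Col1a1 probe sets, which stood outside the naming rule and are given as the partner chain, were at 0.22 and 0.00059, both highest in p300+/- 3 (0.51 and 0.27).

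Among the network-forming collagens, the type VIII chains held the probe sets with the widest ranges, with low values on wild-type 2 in 3 of their 4 probe sets. Col8a1 and Col8a2 encode the short chains of this collagen of vessel walls and of the membrane under some epithelia, and Col9a3 a chain of the FACIT collagen type IX. The 250 bases before the annotated starts of Col8a1 (chr16:57754738-57754987, minus strand) and Col8a2 (chr4:126286544-126286793, plus strand) follow, from RefSeq with build GRCm38.p6, because both genes had a probe set among the members of widest range. They are written 5′ to 3′ along the gene, and capitals mark a match on either strand to 4 motifs, namely the GC box GGGCGG, the CCAAT box CCAAT, the TATA box TATAAA and the half-site of the cAMP response element TGACG.
Col8a1: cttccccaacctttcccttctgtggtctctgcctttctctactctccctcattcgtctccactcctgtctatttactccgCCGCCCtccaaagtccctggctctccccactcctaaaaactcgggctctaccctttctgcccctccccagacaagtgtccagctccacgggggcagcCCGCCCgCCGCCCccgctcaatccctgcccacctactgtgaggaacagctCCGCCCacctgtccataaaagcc
Col8a2: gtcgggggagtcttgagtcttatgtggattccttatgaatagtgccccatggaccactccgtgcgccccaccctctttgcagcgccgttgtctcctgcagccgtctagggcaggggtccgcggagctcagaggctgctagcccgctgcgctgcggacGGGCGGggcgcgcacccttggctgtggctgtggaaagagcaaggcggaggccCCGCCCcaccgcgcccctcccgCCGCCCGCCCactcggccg
Both windows held 4 GC box matches, the last 2 of Col8a2 sharing bases, and none of the other motifs in these letters. A GC box occurred in 34 of the 68 windows found for 62 of the 85 genes (50.0%), and in 32.7% of all 32841 windows in the RefSeq table.

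Col8a1 lay far below its median on wild-type 2 in 2 of its 3 probe sets. Probe set 1418440_at, which had no level class, was at 0.047, -0.047 and 0.23 in p300+/- pools, against -0.093, -1.85 and 0.44 in wild-type pools. Probe set 1455627_at was at 0.10, 0.072 and -0.12 in p300+/- pools, against -0.072, -1.82 and 0.57 in wild-type pools. Wild-type 3 was the highest array and wild-type 2 the lowest, with the p300+/- pools between them. Their ranges of 2.29 and 2.39 were the widest among the members, whose median range was 0.45 (0.48 over all tested). The fold changes were 0.58 ± 0.52 and 0.46 ± 0.53, and without wild-type 2 they were -0.099 and -0.23. The third probe set, 1418441_at, did not share the pattern, at 0.11 on wild-type 2. Col8a2 (1434667_at) lay at -0.0033, -0.33 and 1.06 in p300+/- pools, against 0.0033, -0.88 and 0.052 in wild-type pools. It was lowest on wild-type 2 and also high on p300+/- 3, with a fold change of 0.52 ± 0.39, of 0.21 without wild-type 2 and 0.11 without p300+/- 3.

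Col9a3 was low on the same array in 2 of 3 probe sets. Probe set 1460734_at lay at 0.055, -0.51 and 0.076 in p300+/- pools, against -0.020, -1.35 and 0.020 in wild-type pools, and 1460693_a_at at -0.40, 0.023 and 0.046 in p300+/- pools, against -0.023, -0.96 and 0.52 in wild-type pools. Wild-type 2 was the lowest array in both. Their fold changes were 0.32 ± 0.37 and 0.047 ± 0.35, and -0.13 and -0.36 without wild-type 2. The third, 1420280_x_at, was in the lowest level class and had a range of 0.31 over the arrays. Choroid plexus markers, 12 measured of 14 listed, shared the low values of these collagens on wild-type 2. All 12 were lowest on wild-type 2, where their mean was -2.04, and the means elsewhere were 0.11, -0.045 and 0.24 in p300+/- pools and -0.15 and 0.21 in the remaining wild-type pools. The centred values do not show which markers were near 0 in level. The part of choroid plexus tissue in the collagen values was not tested.

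**Figure D3:**
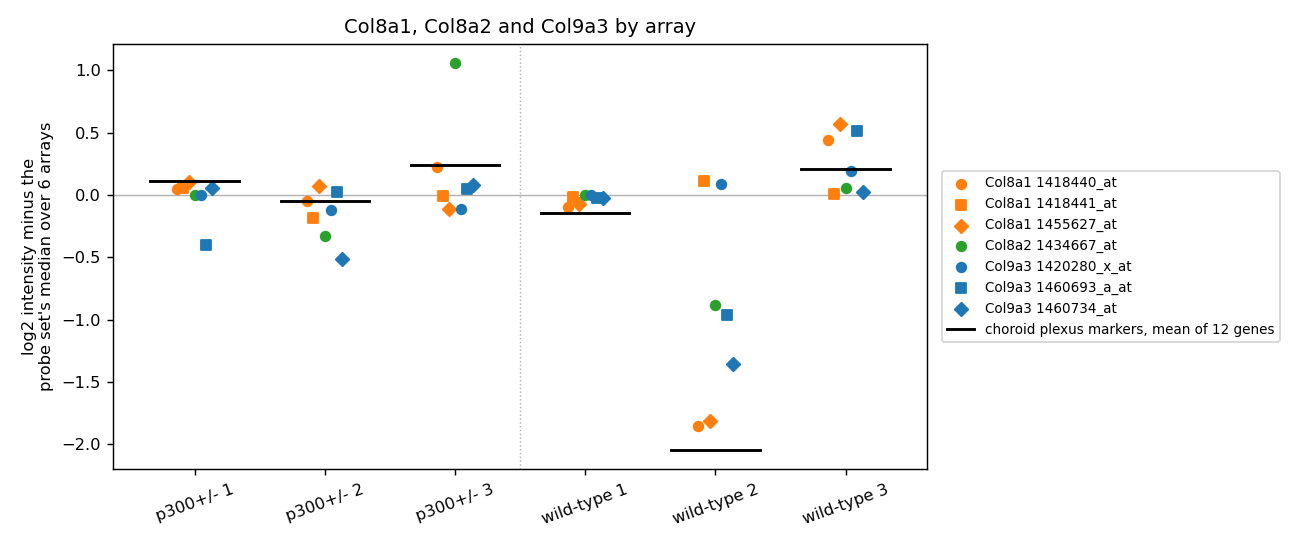
Points show the log2 intensity minus the probe set's median for each probe set of Col8a1, Col8a2 and Col9a3 on the 3 p300+/- and the 3 wild-type arrays, and bars the mean of 12 choroid plexus marker genes. On wild-type 2, 5 of the 7 probe sets lie between -1.85 and -0.88, beside a marker mean of -2.04.

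Other network and basement membrane collagens gave small differences. Col6a3, a chain of the beaded-filament collagen type VI, lay at 0.12, 0.044 and 0.15 in p300+/- pools, against -0.14, -0.21 and -0.044 in wild-type pools. The genotypes did not overlap, and the fold change was 0.24 ± 0.11, with a 95% interval of -0.020 to 0.49. Col4a3, a basement membrane chain, was highest on p300+/- 3 at 0.66 in probe set 1450224_at, with a fold change of 0.30 ± 0.20, and its other probe set gave -0.048. Col4a6 did not overlap in 1421007_at (-0.14 ± 0.11), a probe set of the lowest level class, and gave 0.051 in the other.

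In the FACIT family, probe sets without overlap were small in size. Col22a1 (1453084_s_at) was at -0.15 ± 0.11, Col9a3 (1420280_x_at) at -0.17 ± 0.11 and Col12a1 (1445751_at) at 0.13 ± 0.11. The other 3 probe sets of Col12a1 ran from -0.23 to 0.12, and the other 2 of Col22a1 were at -0.048 and -0.019. Col16a1 gave -0.22 ± 0.13 and Col9a2 -0.20 ± 0.12, both with overlap. Of the transmembrane collagens, Col23a1 was below 0 in all 3 probe sets, at -0.42 ± 0.26, -0.26 ± 0.19 and -0.054 ± 0.19. Its values were lowest on p300+/- 3 or on wild-type 2, so that the genotypes overlapped. For 1429210_at the pools were at 0.065, -0.065 and -0.59 in p300+/-, against 0.59, -0.26 and 0.34 in wild-type. Without wild-type 2 the value was -0.66 (limma, unadjusted p = 0.0197), and without p300+/- 3 it was -0.22. Probe set 1440911_at was at -0.44 without wild-type 2 (limma, unadjusted p = 0.0360). Col25a1, a transmembrane collagen of neurons found in amyloid plaques, gave -0.21 and 0.16.

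Laminins are trimers of an alpha, a beta and a gamma chain, and none of their 19 probe sets reached an unadjusted p of 0.05 over all 6 arrays. Lama1, the alpha chain of early basement membranes and of the meningeal surface, lay at 0.14, 0.014 and 0.10 in p300+/- pools, against -0.014, -0.055 and -0.18 in wild-type pools. It was the only laminin whose genotypes did not overlap, beside 5.39% of all tested probe sets, with a fold change of 0.17 ± 0.11. Lama4, the alpha chain of vessel basement membranes, gave -0.22 ± 0.19 in 1424808_at, of the lowest level class. The other probe set, 1424807_at, of the brightest class, gave -0.10 ± 0.18. Without p300+/- 2, 1424808_at was at -0.43 (limma, unadjusted p = 0.0253) and 1424807_at at 0.0030. Without p300+/- 1, 1424808_at was at -0.11. The laminin values as a whole ran from -0.22 to 0.17.

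Integrin alpha subunits held 33 probe sets of 14 genes. Of these probe sets, 6 had genotypes that did not overlap, beside 5.39% of all tested. The 250 bases before the annotated starts of 4 of the genes that were lower in such a probe set are shown from RefSeq (GRCm38.p6), with capitals as above. They lie at chr2:79255176-79255425 (plus strand) for Itga4, chr2:12301945-12302194 (minus) for Itga8, chr2:83724147-83724396 (plus) for Itgav and chr3:96645334-96645583 (plus) for Itga10.
Itga4: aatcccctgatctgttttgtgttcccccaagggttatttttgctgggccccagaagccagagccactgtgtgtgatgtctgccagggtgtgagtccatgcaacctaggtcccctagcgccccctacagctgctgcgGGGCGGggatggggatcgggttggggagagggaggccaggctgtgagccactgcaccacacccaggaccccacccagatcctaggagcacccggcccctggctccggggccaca
Itga8: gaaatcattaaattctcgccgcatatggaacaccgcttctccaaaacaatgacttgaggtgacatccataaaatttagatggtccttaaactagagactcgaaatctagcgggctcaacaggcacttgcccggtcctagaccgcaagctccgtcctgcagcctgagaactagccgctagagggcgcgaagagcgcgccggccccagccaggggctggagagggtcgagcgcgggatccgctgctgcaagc
Itgav: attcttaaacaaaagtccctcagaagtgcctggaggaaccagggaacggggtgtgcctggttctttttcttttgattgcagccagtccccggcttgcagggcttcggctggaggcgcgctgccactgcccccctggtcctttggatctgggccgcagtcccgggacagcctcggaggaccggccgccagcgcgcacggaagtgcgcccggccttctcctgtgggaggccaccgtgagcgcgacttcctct
Itga10: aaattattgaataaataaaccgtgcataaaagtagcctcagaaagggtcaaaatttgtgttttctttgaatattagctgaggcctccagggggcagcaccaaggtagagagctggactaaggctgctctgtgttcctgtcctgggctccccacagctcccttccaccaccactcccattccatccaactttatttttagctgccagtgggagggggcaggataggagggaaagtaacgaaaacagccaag
Only the Itga4 window held a match, a single GC box. Their GC content was 64.0% for Itga4, 56.4% for Itga8, 64.4% for Itgav and 48.0% for Itga10. CpG dinucleotides numbered 6 in Itga4, 18 in Itga8, 18 in Itgav and 2 in Itga10.

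Itga4 encodes the alpha 4 subunit, which pairs with beta 1 or beta 7 and binds VCAM-1 and fibronectin. Probe set 1456498_at lay at -0.26, -0.18 and -0.23 in p300+/- pools, against 0.19, 0.18 and 0.42 in wild-type pools. The p300+/- pools lay close together (-0.22 ± 0.039, SD, n = 3) and all below the wild-type pools (0.26 ± 0.14). The fold change was -0.49 ± 0.12 (limma, unadjusted p = 0.00384, adjusted p = 0.9999), a ratio of 0.714 to wild-type on the linear scale (95% interval 0.590 to 0.864). With an array left out it ran from -0.53 to -0.41. The other 4 Itga4 probe sets gave 0.14, -0.15, 0.044 and 0.019, with standard errors of 0.11 to 0.14 and overlapping genotypes.

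Itga6, a laminin receptor subunit of vessels, glia and neural precursors, lay in 1422444_at at -0.071, -0.29 and -0.46 in p300+/- pools, against 0.071, 0.24 and 0.20 in wild-type pools. The fold change was -0.44 ± 0.14 (limma, unadjusted p = 0.0130), and the other probe set, also in the brightest class, gave -0.065 ± 0.14. Without both p300+/- 3 and wild-type 2 it was -0.31 (limma, unadjusted p = 0.0663). Itga8, which pairs with beta 1 and binds nephronectin and fibronectin, lay in 1454966_at at -0.062, -0.14 and -0.54 in p300+/- pools, against 0.13, 0.28 and 0.062 in wild-type pools. Here p300+/- 3 was far below the other p300+/- pools. The fold change was -0.40 ± 0.16 (limma, unadjusted p = 0.0336) and -0.26 without p300+/- 3 (limma, unadjusted p = 0.0964). The other Itga8 probe set gave -0.16 ± 0.25.

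Itgav, the alpha subunit of receptors for vitronectin and for latent TGF-beta, gave -0.23 ± 0.13 in 1452784_at, the only Itgav probe set of the brightest class, without overlap. The remaining 4 Itgav probe sets ran from -0.090 to 0.42. The highest of these, 1421198_at, held p300+/- 2 at 0.97 and p300+/- 3 at -0.45. It was at 0.070 without p300+/- 2 and at 0.78 without p300+/- 3 (limma, unadjusted p = 0.0256). Itga10, a collagen receptor subunit known from cartilage, gave -0.21 ± 0.11, also without overlap. Itgae, the subunit of tissue-resident T cells that binds E-cadherin, was the only alpha subunit with a higher probe set free of overlap (0.14 ± 0.11), and its other probe set gave -0.029.

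Of the 18 probe sets for integrin beta subunits, only that of Itgb4 was without overlap, beside 5.39% of all tested. Itgb4 pairs with alpha 6 in hemidesmosomes. It lay at 0.27, 0.049 and 0.51 in p300+/- pools, against -0.049, -0.096 and -0.12 in wild-type pools, a fold change of 0.36 ± 0.14 (limma, unadjusted p = 0.0347). Its value was 0.25 without p300+/- 3 (limma, unadjusted p = 0.107), and its suffix (1427387_a_at) says that it reads several transcripts of the gene. Itgb8, a partner of alpha v on astrocytes that activates TGF-beta, gave -0.33 ± 0.16, with p300+/- 2 (0.016) above wild-type 1 (-0.016). Without p300+/- 2 it was at -0.43 (limma, unadjusted p = 0.0418), and without p300+/- 1 at -0.21. Itgb1, the common partner of most of the alpha subunits above, was added after its values were seen. Its 6 probe sets lay between -0.065 and 0.084.

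Among the small leucine-rich proteoglycans, which bind collagen fibrils and growth factors, Fmod and Dcn had the probe sets with the smallest p. Fmod, fibromodulin, was above 0 in all 6 probe sets, from 0.023 to 0.37. The highest, 1437718_x_at, lay at 0.054, 0.11 and 0.13 in p300+/- pools, against -0.40, -0.34 and -0.054 in wild-type pools. These genotypes did not overlap, and the fold change was 0.37 ± 0.13 (limma, unadjusted p = 0.0237). The other 5 overlapped, and 5 of the 6 carry a suffix for probes that may bind more than 1 transcript. Dcn, decorin, lay in 1441506_at at 0.051, 0.25 and 0.15 in p300+/- pools, against -0.48, -0.051 and -0.12 in wild-type pools (0.37 ± 0.15; limma, unadjusted p = 0.0383). Wild-type 1 was the lowest, and without it the value was 0.24 (limma, unadjusted p = 0.140). The brighter Dcn probe set, 1449368_at, had the opposite sign at -0.18 ± 0.15, with p300+/- 1 lowest at -0.43.

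Lum, Ogn and Bgn overlapped between genotypes in each of their probe sets. Lum, lumican, lay at -0.11, 0.11 and 0.62 in p300+/- pools, against -0.12, 0.36 and -0.44 in wild-type pools (0.27 ± 0.25). Ogn, osteoglycin, gave 0.21 ± 0.15 and -0.015 ± 0.27. Its second probe set, 1419663_at, was highest on wild-type 2 at 0.76. Bgn, biglycan, was near 0 in fold change in all 3 probe sets (-0.083, -0.080 and -0.042), and in 2 of them p300+/- 3 and wild-type 2 were the lowest arrays. Markers of meninges and fibroblasts, 12 measured of 12, were above 0 in 12 of 15 probe sets, with a median fold change of 0.12 like that of the proteoglycans. Their mean was 0.055, -0.042 and 0.16 in p300+/- pools, against -0.24, -0.072 and -0.011 in wild-type pools, highest on p300+/- 3 and lowest on wild-type 1. The part of meningeal tissue in the proteoglycan and type I collagen values was not tested.

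**Figure D4:**
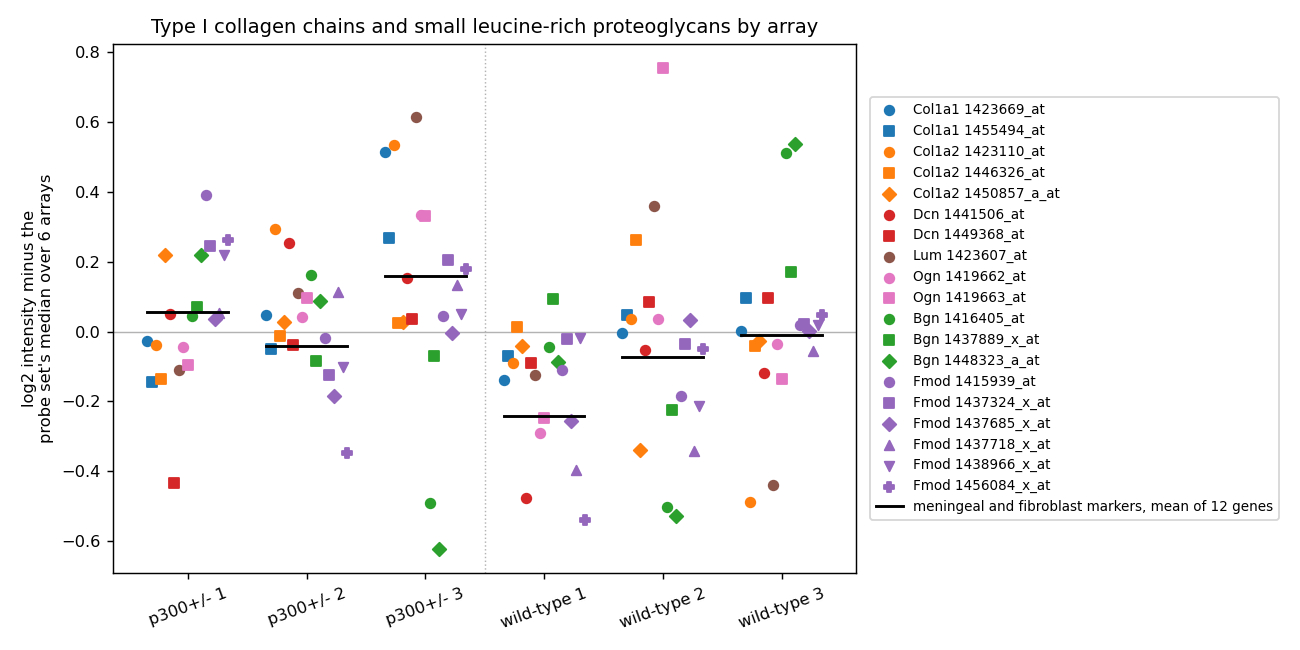
Points show the log2 intensity minus the probe set's median for the probe sets of Col1a1, Col1a2 and the 5 small leucine-rich proteoglycans on each p300+/- and wild-type array, and bars the mean of 12 meningeal and fibroblast marker genes. On p300+/- 3, 15 of the 19 probe sets are above 0, with the 3 of Bgn and 1 of Fmod below, and on wild-type 1 only 2 are above 0.

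The lecticans, hyaluronan-binding proteoglycans of the brain matrix and of perineuronal nets, had overlapping genotypes in each probe set. Acan, aggrecan, the core proteoglycan of these nets, gave -0.028 ± 0.16, and Bcan, brevican, gave -0.043 ± 0.13 and 0.065 ± 0.21. Vcan, versican, ran from -0.17 to 0.077 over 8 probe sets. Ncan, neurocan, disagreed most among its probe sets, at 0.49 ± 0.39, -0.28 ± 0.32 and -0.031 ± 0.12. The first of these, 1444020_at, was at 0.93 without wild-type 3 (limma, unadjusted p = 0.0138) and at 0.16 without wild-type 2. In 1444020_at the pools were at 0.039, 0.72 and -0.039 in p300+/-, against -0.46, -0.92 and 0.62 in wild-type. In 1434679_at they were at -0.085, -0.83 and 0.085 in p300+/-, against 0.11, 0.46 and -0.56 in wild-type. The arrays of p300+/- 2 and wild-type 3 were the highest in 1444020_at and the lowest in 1434679_at, although both probe sets are in the brightest class.

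Hapln1, which ties lecticans to hyaluronan, lay in 1421633_a_at at -0.11, 0.54 and 0.11 in p300+/- pools, against -0.41, 0.17 and -0.38 in wild-type pools. The fold change was 0.39 ± 0.22 with overlap, and its other 3 probe sets were at -0.12, 0.055 and 0.020. Without wild-type 2, 1421633_a_at was at 0.58 (limma, unadjusted p = 0.0250), and without p300+/- 2 at 0.21 (limma, unadjusted p = 0.367). Fn1, fibronectin, a ligand of several integrins, gave 0.055 ± 0.17 and 0.071 ± 0.23, and both probe sets were lowest on p300+/- 3 and wild-type 2. Markers of interneurons, only some of which nets surround, were measured for 8 of 8 genes and had a median fold change of -0.0043.

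Other genes that build, process, remodel or sense the matrix were read through 247 probe sets of 117 genes, and 0 passed the adjusted threshold (limma). At an unadjusted p under 0.05, 2 were higher and 3 lower in p300+/- pools, beside 0.770% and 0.451% of all tested, and the median fold change was 0.028. That count of 5 was 1 without wild-type 1 (1.05% of all tested), 3 without p300+/- 1 (2.43%) and 11 without wild-type 3 (1.45%). By group, collagen processing had 25 probe sets above 0 and 9 below (median 0.075). Cell surface proteoglycans and hyaluronan genes had 11 above and 27 below (median -0.083), and the remaining groups had medians from 0.012 to 0.032. Of 64 probe sets for other matrix proteins, Prelp, a leucine-rich proteoglycan, gave 0.52 ± 0.22 and Hapln2, a link protein of the nodes of Ranvier, 0.36 ± 0.15, while Fbn2, a microfibril protein, gave -0.40 ± 0.16. Prelp (1416322_at) was lowest on wild-type 2 at -0.84 and its other probe set gave 0.23, while that of Fbn2 gave -0.20. Among 38 probe sets for cell surface proteoglycans and hyaluronan genes, the hyaluronan receptor Cd44 gave -0.49 ± 0.16. Its pools were at -0.53, -0.46 and -0.017 in p300+/-, against 0.017, 0.20 and 0.23 in wild-type, without overlap. The other 3 Cd44 probe sets ran from -0.30 to 0.086, and the phosphatase gene Ptprz1 gave -0.32, -0.27 and -0.16. Of 59 probe sets for matrix remodelling, the protease gene Adamts9 gave -0.44 ± 0.15, -0.12 and -0.023, and the 5 of the cathepsin Ctsb ran from -0.063 to 0.26. Collagen processing (34 probe sets) and the integrin adhesion complex (52) held none under 0.05. There P4ha1, a collagen prolyl hydroxylase, gave 0.48 ± 0.29 and 0.021, and Adamts3, a procollagen protease, gave -0.24 and 0.16. The collagen receptor Ddr1 ran from -0.12 to 0.39 and Tln2, a talin, from -0.21 to 0.31. The highest probe sets of P4ha1 (1426519_at) and Ddr1 (1415798_at) were lowest on wild-type 2, at -0.96 and -0.74.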

How the data were processed

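Hippocampal RNA was measured on 6 Affymetrix mouse genome arrays, 3 per genotype. RNA was prepared with Trizol and RNeasy columns, pooled from 4 animals and, after scanning, normalized in GeneSpring GX, per the labels' protocols. The sources used here give neither its version nor the summarization and filters. The deposited log2 values had a median of 0 within 1e-06 for each probe set. No source states the logarithm's base, which was taken as 2 because the values lie on binary grids of single-precision numbers from 2 to 16. These grids gave the level class, read with a tolerance of 0.1 of a grid step, and were right for 98.9% of 16028 simulated probe sets. All of those lay within the bounds of a single class, so probe sets that cross a bound were not tested.

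After 64 control probe sets were left out, 34945 had 1 gene symbol, 932 several and 9160 none. The RefSeq table of GRCm38.p6, joined on gene identifiers, matched 34741 of the 34945 and renamed 0 members; promoter windows came from RefSeq too. Each probe set was fitted with limma 3.58.1 in R 4.3.3 (lmFit, eBayes, no covariates), two-sided, with Benjamini-Hochberg adjustment over 45037 and a threshold of 0.05. The main fit used no filter on dim probe sets, because centred values hold no level beyond the coarse class. The fit was tested on simulated data. Figures used matplotlib 3.10.9.

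Members, families, marker and partner lists were chosen with earlier results of these data known. The rule for naming took members with an unadjusted p under 0.05 or without overlap, the 2 genes of smallest p per family (laminins, read as 1 family), the 5 widest ranges, 13 fixed genes, and all probe sets of genes so named, 35 genes in all, with 2 genes per partner list. Itgb1, Col1a1, Col4a1, Col4a2, Col6a1 and the other partner genes under 0.05 were added after their values were seen. Alternatives were quantile normalization, median centring, robust eBayes, array weights, a replicate block, filters on level class and probe set suffix, a threshold of 0.1, gene means and omitted arrays. Leaving out p300+/- 3 and wild-type 2 together was added after seeing the data. Replicates are separate pools, so p-values measure the spread between pools.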

Additional observations from a re-analysis of the deposited data

How the results depend on the processing

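Of the member probe sets, 0 passed an adjusted p of 0.05 under every alternative run, and 0 at a threshold of 0.1 (limma). The count under an unadjusted p of 0.05, 7 in the main setting, ran from 3 without wild-type 1 (1.05% of all tested) to 8 without wild-type 2 (2.56%). Under the other alternatives it ran from 5 without suffixed probe sets (1.16%) to 10 with array weights (3.62%), and it was 5 without p300+/- 3 and wild-type 2 together (2.39%), beside 1.22% of all tested in the main setting. The count without overlap, 17, ran from 30 to 38 with an array left out and was 55 without both arrays, since fewer arrays separate more easily (12.1% to 18.1% and 28.3% of all tested). The median fold change, -0.0036, ran from -0.016 to 0.026 with an array left out, the highest without wild-type 2. The partner count, 5, was 11 with array weights (3.62% of all tested) and ran from 1 without wild-type 1 (1.05%) to 11 without wild-type 3 (1.45%).

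None of the 17 probe sets without overlap changed sign. For omitted or weighted arrays this was fixed in advance, because values that do not overlap keep their sign. Of all 87 named probe sets, 40 changed sign under some alternative. Among those of widest range, with an array left out Col8a1 ran from -0.099 to 1.05 (1418440_at) and from -0.23 to 0.96 (1455627_at), and Col9a3 1460693_a_at from -0.36 to 0.38, where values below 0 also arose without p300+/- 2 (-0.020) and p300+/- 3 (-0.031). Without both arrays these were -0.17, -0.16 and -0.43, and Col8a2 was at -0.19. Col9a3 1460693_a_at was at -0.14 with quantile normalization and -0.17 with array weights. The causes were not tested beyond the omission of these arrays.

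The labels do not say whether replicate numbers pair the arrays. Correlations of deviations from the genotype means were 0.609, -0.230 and -0.468 for numbers 1 to 3. These values cannot settle pairing, because the deviations sum to 0 within each genotype. With the replicate block 8 members were under 0.05, 6 of them among the 7. Itgb4 was not (unadjusted p = 0.0545, limma), and Hapln1 and Itgb8 were added. Signal over background could not be judged from centred values.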

Other observations

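Several collagen and proteoglycan genes, chosen after their values were seen, were low on the same array of each genotype. Col6a1 lay at -0.032, 0.032 and -0.75 in p300+/- pools, against 0.082, -0.63 and 0.086 in wild-type pools. Col4a2, a chain of the basement membrane collagen, lay at 0.31, -0.058 and -0.41 in p300+/- pools, against 0.058, -0.38 and 0.24 in wild-type pools. Its partner chain Col4a1 followed in 1426348_at (0.14, -0.086 and -0.14 in p300+/- pools, against 0.25, -0.19 and 0.086 in wild-type pools) but not in the brighter 1452035_at, where p300+/- 2 was lowest at -0.54. Bgn 1416405_at was at -0.49 on p300+/- 3 and -0.50 on wild-type 2. The fold changes were -0.097 ± 0.27 for Col6a1 and -0.023 ± 0.23 for Col4a2, with 1 low array in each genotype. Endothelial markers, 11 measured of 12, averaged 0.043, 0.25 and -0.11 in p300+/- pools, against -0.037, -0.15 and 0.21 in wild-type pools, and were also lowest on these arrays. Markers of pericytes and smooth muscle, 10 measured of 10, averaged -0.038 on p300+/- 3 and -0.042 on wild-type 2. They were lowest on wild-type 1, at -0.049. The part of these vessel cells in the collagen values was not tested. Over all members, p300+/- 3 and wild-type 2 were the lowest arrays together in 25 probe sets (13.4%) and the highest together in 33 (17.7%), against 15.8% and 21.4% of all tested probe sets.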
